A study of Mus musculus with 11 samples.

Results

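The Satb1 gene lay nearest to 21 of the 38509 accessible regions (peaks) that the study's authors measured by ATAC-seq in mouse CD4 T cells. A peak was given to Satb1 when its centre was nearer to a RefSeq transcription start of Satb1 than to a start of any other gene. The gene was chosen because its peaks were low in anergic cells, so the values that set anergic cells against the other groups are descriptions, and counts of calls there stand only beside the share over all peaks, with nothing read from them. Comparisons among Treg, Teff and naive cells hold no anergic library and were tested, although their libraries are the other side of those descriptions.

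Satb1 encodes special AT-rich sequence-binding protein 1, a nuclear protein that binds base-unpairing AT-rich DNA and holds chromatin loops together in T cells. It is highly expressed in developing thymocytes and is needed for their normal progress and for the early programme of regulatory T cells. In mature regulatory T cells FOXP3 represses Satb1, and in T helper 2 cells SATB1 organises the cytokine locus. ATAC-seq reads accessibility by letting a transposase cut open DNA, so a peak marks a promoter, an enhancer or another stretch that is not packed into nucleosomes.

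All 11 libraries came from CD4 T cells sorted from mixed spleen and lymph node of wildtype C57BL/6 Foxp3-GFP polyclonal mice, without treatment. Anergic cells (n = 3) were high for CD44, CD73 and FR4, negative for FOXP3 and positive for NRP1, the surface pattern of T cells that have met antigen and no longer respond. Treg cells (n = 3) expressed FOXP3 and CD25. Teff cells (n = 3) were high for CD44, negative for FOXP3 and low for CD73 and FR4. Naive cells (n = 2) were low for CD44. Each group is defined by its sort gate alone, and the labels do not give the animals' age. Nothing in them says that replicates came from different animals, so every p-value below rests on the spread among libraries, which may be technical.

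Libraries held 14.7 to 68.8 M reads in peaks, and the 21 Satb1 peaks held 1606 reads (anergic replicate 1) to 15916 reads (naive replicate 2). Values are the deposited signal, in which 1 read was worth 0.527 to 2.13 units. The peak of the sort marker Foxp3 was highest in the Treg gate, with 1118 to 1597 in Treg libraries. It had 96.1 to 184 in anergic, 14.04 to 63.3 in Teff and 7.74 to 15.4 in naive libraries. Anergic libraries thus lay above Teff and naive ones, although the anergic gate was negative for FOXP3. Across all peaks, libraries of 1 group correlated at r = 0.973 to 0.986, and libraries of different groups at no more than 0.934.

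Satb1 lies on the minus strand of chromosome 17 (51736187 to 51833290, GRCm38/mm10), and RefSeq gives it 8 transcripts from 5 starts. The peaks are numbered 1 to 21 in the direction of transcription, and distances are from the first start, at 51833290. Peaks 1 and 2 lay 24.5 and 22.2 kb upstream of it. Peak 3 (51831350 to 51834074, 2725 bases) covered the first start and the one after it. Peak 7 (51826341 to 51826860) covered the third start, and peak 9 (51812060 to 51814791, 2732 bases) covered the start from which 4 of the 8 transcripts begin. Only peaks 3 and 7 had their centre within 1000 bases of a start, and the centre of peak 9 was 1.24 kb from one. Of the others, peak 12 lay on a coding exon, peak 19 on an untranslated exon and peaks 20 and 21 beyond the end of the gene, and the rest were intronic. The widths ranged from 98 to 2732 bases with a median of 279, against a median of 369 over all peaks.

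The promoter of the first start is shown because it lies inside the strongest Satb1 peak. Peaks 1 and 2 are shown because they were called higher in Treg than in Teff cells, and peaks 10 and 14 because their signal was among the 3 with the greatest difference between anergic and Teff cells. The sequences come from the RefSeq genome (GRCm38.p6), run 5′ to 3′ along the minus strand, and have the letters of a searched motif in capitals. The capitals mark a KLF and SP match in the promoter and in peak 2 (2 matches), an E-box in peaks 1, 10 and 14 and an ETS match in peak 10, on either strand.
Promoter of the first start, chr17:51833291-51833540: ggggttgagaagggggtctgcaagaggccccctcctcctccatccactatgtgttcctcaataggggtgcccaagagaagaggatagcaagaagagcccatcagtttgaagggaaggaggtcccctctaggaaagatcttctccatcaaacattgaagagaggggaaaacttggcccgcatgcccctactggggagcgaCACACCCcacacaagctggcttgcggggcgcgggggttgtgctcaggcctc
Peak 1, chr17:51857677-51857938: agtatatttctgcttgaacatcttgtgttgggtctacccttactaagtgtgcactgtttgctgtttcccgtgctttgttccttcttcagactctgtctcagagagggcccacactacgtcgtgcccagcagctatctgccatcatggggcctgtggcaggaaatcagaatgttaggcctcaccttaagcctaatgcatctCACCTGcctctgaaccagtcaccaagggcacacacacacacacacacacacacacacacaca
Peak 2, chr17:51855372-51855552: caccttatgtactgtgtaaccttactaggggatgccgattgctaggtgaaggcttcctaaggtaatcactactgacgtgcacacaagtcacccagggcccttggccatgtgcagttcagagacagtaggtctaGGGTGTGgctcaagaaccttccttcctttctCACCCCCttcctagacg
Centre of peak 10, chr17:51806575-51806874: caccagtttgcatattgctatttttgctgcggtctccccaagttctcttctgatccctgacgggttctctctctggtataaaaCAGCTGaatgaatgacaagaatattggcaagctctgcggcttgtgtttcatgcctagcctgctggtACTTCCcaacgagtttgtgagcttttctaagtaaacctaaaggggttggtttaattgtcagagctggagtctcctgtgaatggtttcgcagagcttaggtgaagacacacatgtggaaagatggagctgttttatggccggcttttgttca
Peak 14, chr17:51802633-51802730: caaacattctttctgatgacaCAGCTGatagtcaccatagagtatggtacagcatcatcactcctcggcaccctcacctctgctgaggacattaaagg

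Motifs were searched in the 300 bases around the centre of each peak, on both strands, which for narrow peaks reaches beyond their edges. The RUNX letters TGTGGT were found in 9 of the 21 Satb1 windows, and in 26.3% of the windows of all 38441 peaks on chromosomes. TCF and LEF letters (CTTTGA) were found in 8 Satb1 windows and 19.2% of all windows. The E-box (CANCTG) was found in 7 and 55.0%, ETS (GGAAGT) in 5 and 27.5%, KLF and SP (GGGNGTG) in 5 and 28.9%, and AP-1 (TGANTCA) in 3 and 11.8%. The IRF motif matched in 2 Satb1 windows and 4.73% of all windows, and the GATA motif in 1 and 10.8%. CTCF, FOX (GTAAACA) and T-box (AGGTGTGA) letters were in none of the 21 windows, and in 11.5%, 4.02% and 1.63% of all windows. Peaks 5, 8, 12, 16 and 21 held both RUNX and TCF letters, and of these peak 16 also held AP-1 and ETS letters. Among the 5 Satb1 promoters (250 bases before to 50 after a start), 4 held ETS letters and 4 held KLF and SP letters. Of the 32851 RefSeq promoters searched, 23.8% and 29.2% also hold them. The Satb1 promoters at 51812135 to 51812434 and 51812005 to 51812304 overlap and both held KLF and SP letters. The same match may thus be counted in both. The G and C content of the Satb1 peaks ranged from 37.7% (peak 11) to 63.7% (peak 3), with a median of 49.4% against 52.8% over all peaks. A match to letters is not a bound site.

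Summed over its 21 peaks, the Satb1 locus was least accessible in anergic cells and most accessible in naive cells, with Treg and Teff cells between them. The summed signal was 2662.7, 3063.2 and 2969.5 in anergic libraries, 7709.8, 7294.8 and 7375.3 in Treg libraries, 6429.1, 6697.1 and 7073.8 in Teff libraries and 12200.1 and 12322.8 in naive libraries. No library of 1 group overlapped a library of another. Group means were 2898.5 ± 210 in anergic, 7460.0 ± 220 in Treg, 6733.3 ± 324 in Teff (SD, n = 3 each) and 12261.4 ± 86.8 in naive cells (SD, n = 2). Relative to the naive mean, the anergic locus held 23.6% of the signal, the Treg locus 60.8% and the Teff locus 54.9%. On the log2 scale the summed signal differed by -1.37 between anergic and Treg cells, by -1.22 between anergic and Teff cells, by -2.08 between anergic and naive cells and by 0.15 between Treg and Teff cells. In bulk libraries such as these, fewer cells with an open site and less opening per cell cannot be told apart.

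**Figure D1:**
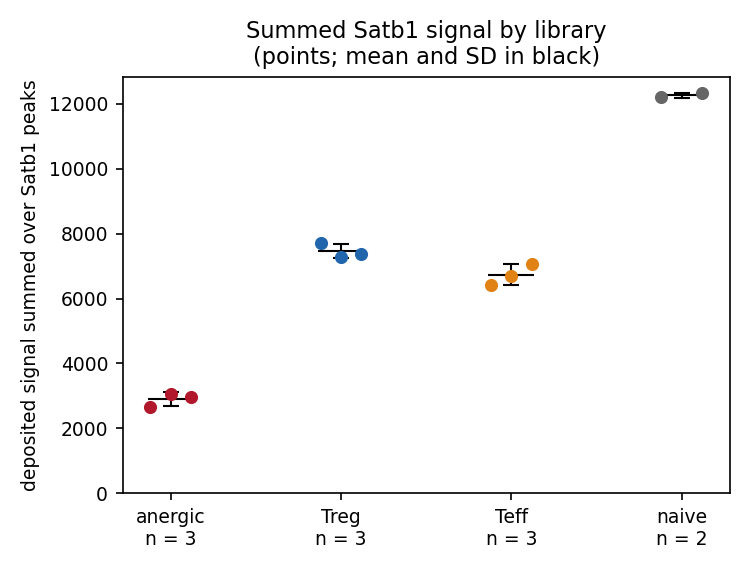
Deposited ATAC-seq signal summed over the 21 Satb1 peaks (y axis, from 0) in each of the 11 libraries (points) of the anergic, Treg, Teff and naive groups, with the group mean and SD in black. The anergic libraries sit between 2662.7 and 3063.2 and the naive libraries between 12200.1 and 12322.8, with Treg and Teff libraries between these and apart from each other.

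Peak by peak, the same outer order held throughout: the anergic mean was the lowest and the naive mean the highest of the 4 groups at all 21 peaks. Treg cells stood above Teff cells at 12 peaks and below them at 9. Every anergic library was below every library of the other groups at 14 peaks, and every naive library was above every other library at 20. Peak 6, an intronic peak 5.19 kb downstream of the first start, was the exception at the naive end, with 81.1, 78.8 and 25.3 in Treg libraries against 82.1 and 79.7 in naive libraries. Signal relative to the naive mean ranged over peaks from 6.35% to 37.3% in anergic cells (median 15.1%), from 21.6% to 86.4% in Treg cells (median 48.8%) and from 15.8% to 85.9% in Teff cells (median 39.7%).

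**Figure D2:**
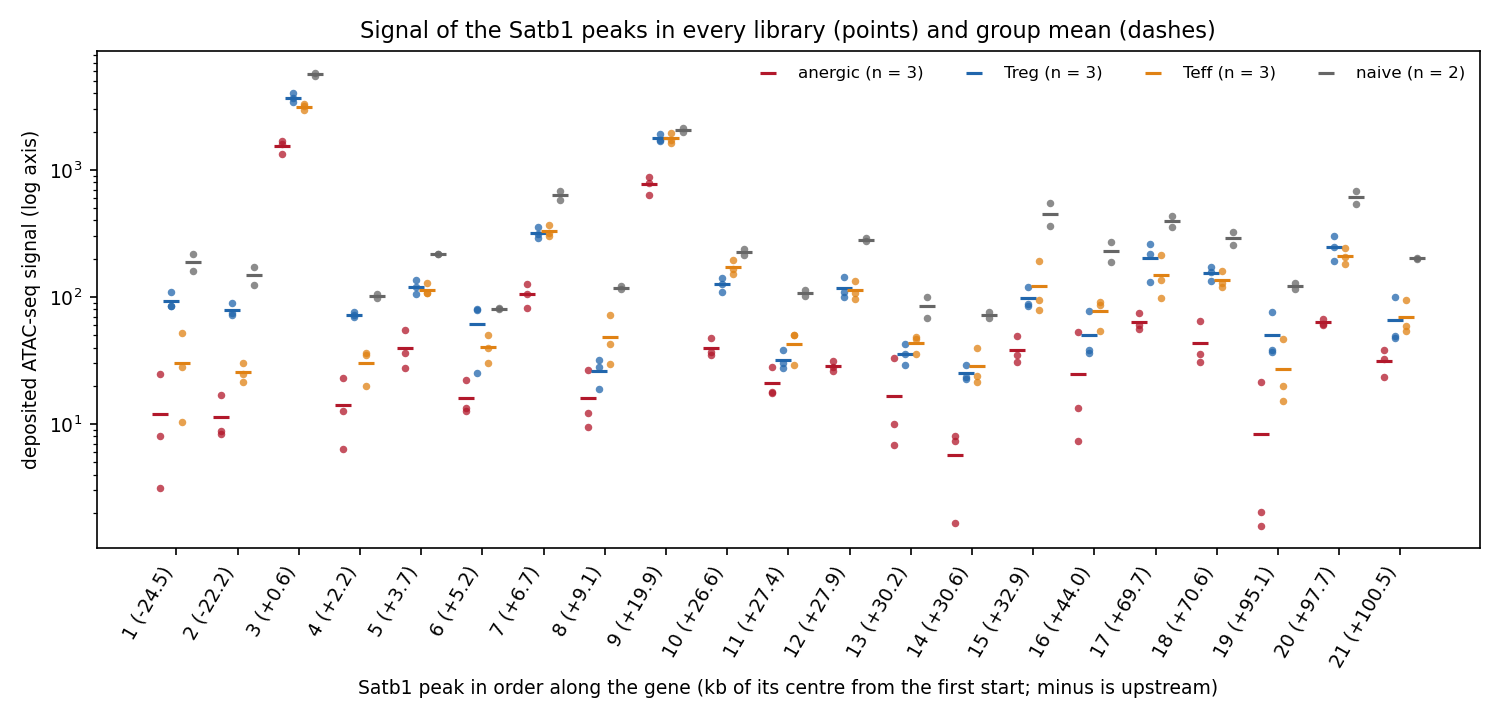
Deposited ATAC-seq signal (y axis, log scale) at each Satb1 peak (x axis, in order along the gene, with the distance of its centre from the first start in kb) in every library (points) and as group means (dashes) for anergic, Treg, Teff and naive cells. At all 21 peaks the anergic mean is the lowest and the naive mean the highest.

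Against Teff cells, 19 of the 21 peaks were lower in anergic cells and none was higher at an adjusted p under 0.05 (limma), where over all 38493 peaks tested 16.8% were lower and 15.9% were higher. Against Treg cells 19 peaks were lower and none higher (14.8% and 19.4% over all peaks), and against naive cells all 21 were lower (25.1% lower and 25.3% higher over all peaks). The choice of the gene fixed these counts, and nothing is read from them. The log2 fold changes over the 21 peaks had a median of -1.56 (-2.28 to -0.98) for anergic over Teff, against -0.001 over all peaks. For anergic over Treg the median was -1.63 (-3.23 to -0.59), and for anergic over naive it was -2.77 (-4.46 to -1.43). The fold changes are on the scale of log2 of the signal plus 1, which understates changes of weak peaks.

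Peak 3, the promoter peak and the strongest of the locus, had a signal of 1333, 1675 and 1586 in anergic libraries, 4014, 3414 and 3678 in Treg libraries, 2975, 3300 and 3189 in Teff libraries and 5533 and 5756 in naive libraries. The groups did not overlap, and the anergic mean was 27.1% of the naive mean, so the promoter kept a strong signal where it was lowest. Its log2 fold change was -1.28 ± 0.10 for anergic over Treg, -1.05 ± 0.10 for anergic over Teff and -1.89 ± 0.11 for anergic over naive (SE). It was among the 3 smallest differences of the locus between anergic and Teff cells.

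Peak 9, at the start shared by 4 transcripts, had 632, 786 and 887 in anergic libraries, 1917, 1703 and 1719 in Treg libraries, 1625, 1715 and 1968 in Teff libraries and 1988 and 2131 in naive libraries. Treg and Teff libraries overlapped each other and lay at 86.4% and 85.9% of the naive mean, while anergic libraries, below all others, lay at 37.3%. Peak 7, at the third start, had 106, 128 and 81.3 in anergic libraries, 293, 355 and 311 in Treg libraries, 320, 366 and 302 in Teff libraries and 581 and 678 in naive libraries. Treg and Teff libraries overlapped at peak 7, all of them above the anergic and below the naive ones. The log2 fold change of anergic over Teff cells was -1.21 ± 0.12 at peak 9 and -1.66 ± 0.18 at peak 7 (SE).

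The greatest differences between anergic and Teff cells were at 3 smaller peaks inside the transcribed region, peaks 14, 19 and 10. Peak 14 had 1.66, 7.38 and 8.06 in anergic libraries, 29.3, 23.4 and 22.8 in Treg libraries, 21.5, 24.0 and 40.0 in Teff libraries and 75.6 and 68.1 in naive libraries. Its anergic libraries were below all others, but the lowest held 1 read, the smallest value the table has. Peak 19, on an untranslated exon, had 21.6, 1.58 and 2.02 in anergic libraries, 38.3, 76.6 and 36.7 in Treg libraries, 15.2, 19.8 and 46.7 in Teff libraries and 116 and 129 in naive libraries, and its anergic and Teff libraries overlapped. Peak 10, an intronic peak of 562 bases 26.6 kb downstream of the first start, rested on more reads, with 34.8, 36.9 and 47.7 in anergic libraries, 127, 109 and 141 in Treg libraries, 196, 153 and 167 in Teff libraries and 214 and 240 in naive libraries. No groups overlapped at peak 10, where Teff cells kept 75.7% of the naive mean and anergic cells 17.5%. Its log2 fold change of anergic over Teff cells was -2.09 ± 0.23, against -2.28 ± 0.57 at peak 14 and -2.17 ± 0.66 at peak 19 (SE). In 5 of the 21 peaks an anergic library had under 10 reads, and no library of another group had so few.

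At the other end, peaks 11, 3 and 21 differed least between anergic and Teff cells. Peak 11, also intronic, had 28.2, 17.9 and 17.5 in anergic libraries, 30.4, 27.7 and 38.0 in Treg libraries, 49.8, 28.9 and 50.0 in Teff libraries and 114 and 102 in naive libraries. Anergic and Treg libraries overlapped at peak 11, and all 3 experienced groups were far below naive cells. Peak 21, the most distant at 100.5 kb downstream of the first start, had 38.1, 32.7 and 23.5 in anergic libraries, 47.3, 100.04 and 49.4 in Treg libraries, 54.0, 59.5 and 95.0 in Teff libraries and 201 and 201 in naive libraries. Its anergic libraries were below all others and its naive libraries far above them. The log2 fold changes of anergic over Teff cells were -0.98 ± 0.39 at peak 11 and -1.10 ± 0.34 at peak 21 (SE).

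Treg cells had lower accessibility than naive cells at 13 of the 21 Satb1 peaks and higher at none (limma, adjusted p under 0.05 over all peaks). Over all peaks 23.0% were lower and 22.3% higher in Treg than in naive cells, and for Satb1 the share that was lower was 61.9%. The 13 called peaks had log2 fold changes of -2.22 to -0.61, and the 8 others had log2 fold changes of -1.48 to -0.21. The lowest adjusted p-values were at peaks 15, 20 and 3. Peak 15, an intronic peak 32.9 kb downstream, had 34.8, 49.0 and 30.9 in anergic libraries, 121, 85.1 and 88.6 in Treg libraries, 193, 95.0 and 78.3 in Teff libraries and 544 and 362 in naive libraries (Treg over naive log2 fold change -2.18 ± 0.34, SE, limma adjusted p = 2.14e-05). Peak 20, just beyond the end of the gene, had 61.3, 67.5 and 60.5 in anergic libraries, 190, 300.1 and 249 in Treg libraries, 244, 205 and 183 in Teff libraries and 677 and 537 in naive libraries (Treg over naive -1.31 ± 0.23, limma adjusted p = 7.01e-05). At both peaks every Treg and Teff library was below both naive ones and above all anergic ones. At the promoter peak 3 Treg cells were also lower than naive cells (-0.61 ± 0.11, limma adjusted p = 0.00015).

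Teff cells were lower than naive cells at 16 of the 21 peaks and higher at none, where over all peaks 17.4% were lower and 22.7% higher. That share, 76.2% of the Satb1 peaks, dropped when a naive library was left out: 9 peaks were called without naive replicate 1 and 11 without naive replicate 2, which leaves a lone naive library assumed to vary like the other groups. The 16 peaks had log2 fold changes of -2.86 to -0.84. At peak 20 the log2 fold change of Teff over naive cells was -1.52 ± 0.23 (SE, limma adjusted p = 1.27e-05), and at promoter peak 3 Teff cells were lower by a log2 fold change of -0.84 ± 0.11 (limma adjusted p = 3.55e-06). Peaks lower than in naive cells in both Treg and Teff cells numbered 12. The naive libraries are shared by both comparisons. Peak 9 was called in neither, with log2 fold changes of -0.21 ± 0.14 for Treg and -0.22 ± 0.14 for Teff cells over naive cells (limma adjusted p = 0.224 and 0.211).

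**Figure D3:**
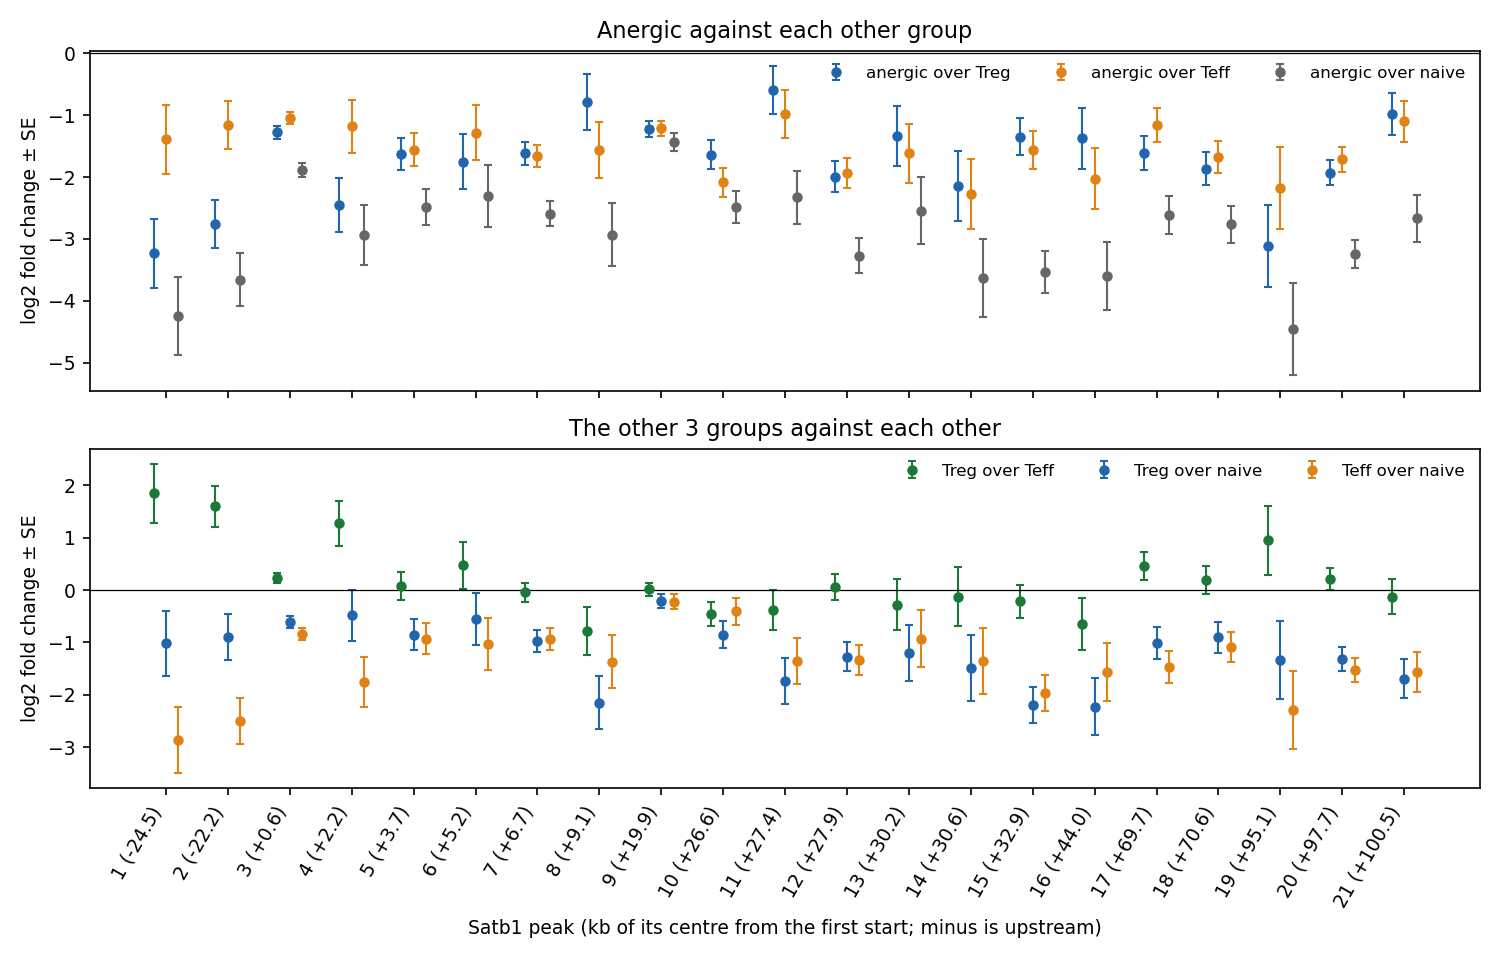
Log2 fold change with SE (y axis) of each Satb1 peak (x axis, with the distance of its centre from the first start in kb), in the upper panel for anergic over Treg, over Teff and over naive cells, and in the lower panel for Treg over Teff, Treg over naive and Teff over naive cells. All 63 anergic fold changes lie below 0, and Treg over Teff cells is above 0 at 12 peaks and below it at 9.

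Between Treg and Teff cells most of the locus was not distinguished. Peaks 1 and 2, upstream of the gene, and peak 4, 2.17 kb into it, were higher in Treg than in Teff cells. None was lower, and 18 of 21 did not pass (limma, adjusted p under 0.05). This count is close to the 14.4% of all peaks that were higher, while 18.2% were lower, so no pattern of the locus is read from it. Peak 2 had 72.1, 89.4 and 74.7 in Treg libraries, against 24.9, 21.5 and 30.0 in Teff libraries, a log2 fold change of 1.60 ± 0.39 (SE, limma adjusted p = 0.00307). Peak 1 had 84.5, 109 and 84.8 in Treg libraries, against 10.4, 28.1 and 51.7 in Teff libraries (1.84 ± 0.56, limma adjusted p = 0.0144). Peak 4, an intronic peak, had 69.8, 72.4 and 76.0 in Treg libraries, against 20.1, 36.3 and 35.0 in Teff libraries (1.27 ± 0.43, limma adjusted p = 0.0272).

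Treg and Teff libraries did not overlap at these 3 peaks, whose sequences for peaks 1 and 2 are shown above. Peak 2 stayed past the threshold without any single library. Peak 1 lost its call without Teff replicate 1 (log2 fold change 1.25) or Treg replicate 2 (1.72), and peak 4 without Teff replicate 1 (1.01) or any 1 Treg library (1.24 to 1.30). In anergic libraries the same peaks had 24.9, 3.16 and 8.06 (peak 1), 8.29, 16.9 and 8.73 (peak 2) and 23.2, 6.33 and 12.8 (peak 4), and in naive libraries 161 and 218, 125 and 173, and 106 and 98.3. Relative to the naive mean, peaks 1 and 2 held 6.35% and 7.59% of the signal in anergic cells, 48.8% and 52.9% in Treg cells and 15.8% and 17.1% in Teff cells. The promoter peak 3 had a log2 fold change of 0.23 ± 0.10 for Treg over Teff cells that did not pass (limma adjusted p = 0.0892), but it passed with edgeR (0.29), with DESeq2 (0.24) and with scaling by total reads (0.33).

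The 9 peaks at which Treg means were below Teff means lay within the gene or beyond its end, and none passed the test. They were peaks 7, 8, 10, 11, 13, 14, 15, 16 and 21, with log2 fold changes of -0.79 to -0.04. Peak 8, in an intron 9.05 kb downstream, had 28.2, 31.9 and 19.0 in Treg libraries, against 29.8, 42.9 and 71.7 in Teff libraries, with 26.5, 12.1 and 9.40 in anergic and 121 and 115 in naive libraries. Peak 16 had 38.3, 36.2 and 77.2 in Treg libraries, against 86.5, 53.7 and 91.7 in Teff libraries, with 53.1, 7.38 and 13.4 in anergic and 270 and 188 in naive libraries. At both peaks 8 and 16, Treg and Teff libraries overlapped. Peak 13 had 29.3, 42.6 and 35.5 in Treg libraries, against 35.3, 48.7 and 46.7 in Teff libraries, with 33.2, 6.85 and 10.1 in anergic and 101 and 68.1 in naive libraries. Peak 10, with values given above, was the one of these 9 whose Treg and Teff libraries did not overlap (-0.45 ± 0.23, limma adjusted p = 0.143).

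The remaining peaks, 5, 6, 12, 17 and 18, followed the order of the whole locus at its 2 ends. Their means ranged from 16.0 to 63.5 in anergic cells, from 61.7 to 203 in Treg cells, from 40.0 to 149 in Teff cells and from 80.9 to 394 in naive cells. Peak 12, the one on coding sequence, averaged 28.5 ± 2.47 in anergic cells, 118 ± 22.2 in Treg cells, 113 ± 19.3 in Teff cells (SD, n = 3 each) and 283 ± 11.3 in naive cells (SD, n = 2).

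The loss of signal was not spread evenly over the gene. Peaks 3 and 9, the 2 with the highest mean signal, carried 79.1% ± 4.85 of the summed Satb1 signal in anergic libraries, 73.4% ± 3.39 in Treg libraries, 73.1% ± 1.67 in Teff libraries (SD, n = 3 each) and 62.8% ± 1.67 in naive libraries (SD, n = 2). Peak 9 alone carried 26.4% ± 3.14 in anergic, 23.8% ± 0.88 in Treg, 26.2% ± 1.39 in Teff and 16.8% ± 0.70 in naive libraries. Peaks 3 and 9 hold starts, but peak 7, which also holds one, went the other way. Its share was 3.63% ± 0.78 in anergic, 4.30% ± 0.54 in Treg, 4.90% ± 0.60 in Teff and 5.13% ± 0.52 in naive libraries (SD). So did peak 15, with 1.32% ± 0.28 in anergic, 1.31% ± 0.22 in Treg and 1.84% ± 1.02 in Teff libraries against 3.70% ± 1.08 in naive libraries (SD). Across the 21 peaks, Spearman's rho between the distance to the nearest Satb1 start and the log2 fold change was -0.62 for anergic over naive, -0.52 for Treg over naive and -0.63 for Teff over naive cells. For anergic over Teff cells it was -0.20. These correlations describe 21 peaks of 1 locus that share their libraries, and the comparisons with naive cells share the naive libraries.

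Lower signal in anergic cells reached beyond the peaks given to Satb1, downstream as well as on its upstream side. The nearest peak outside them there, 43.3 kb upstream (51876345 to 51876835) and nearest to the predicted gene Gm20098, had 64.7, 68.5 and 38.3 in anergic libraries, 155, 217 and 171 in Treg libraries, 226, 178 and 237 in Teff libraries and 527 and 485 in naive libraries. It followed the same outer order as the Satb1 peaks, without overlap between anergic libraries and the others. On the downstream side the nearest peak lay 424.7 kb away (51408287 to 51408849), nearest to C330011F03Rik, with 443, 455 and 296 in anergic libraries, 693, 596 and 670 in Treg libraries, 796, 664 and 538 in Teff libraries and 1708 and 1418 in naive libraries. It was lowest in anergic and highest in naive cells as well, again without overlap between anergic libraries and the others.

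Within 1500 kb of the first start, 42 other peaks lay nearest to 8 genes, 25 of them upstream and 17 downstream. Upstream, anergic cells were lower than naive cells at 22 of 25 peaks and higher at none (median log2 fold change -2.42), where over all peaks 25.1% were lower and 25.3% higher. Downstream, they were lower at 9 of 17 and higher at 3 (median -0.75). Against Teff cells anergic cells were lower at 15 of the 25 upstream peaks and 6 of the 17 downstream ones, and higher at none (16.8% lower and 15.9% higher over all peaks). Treg cells were higher than Teff cells at 11 of the 25 upstream peaks and lower at none, against 4 higher and 2 lower of 17 downstream (14.4% higher and 18.2% lower over all peaks). Of the named neighbours, Gm20098 (49.4 kb upstream) was lower in anergic than in naive cells at 8 of 8 peaks, in Treg than in naive cells at 5 and in Teff than in naive cells at 7. Gm19585 (316.0 kb upstream) was lower in anergic than in naive cells at 6 of 9 peaks. The 1 peak nearest to Tbc1d5, at 653.9 kb downstream, showed log2 fold changes between 0.02 and 0.08 in all 6 comparisons and passed in none, and Plcl2 (1323.7 kb downstream) was lower in anergic than in naive cells at 5 of 10 peaks and higher at 3. Whether any of the upstream peaks acts on Satb1 was not tested.

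**Figure D4:**
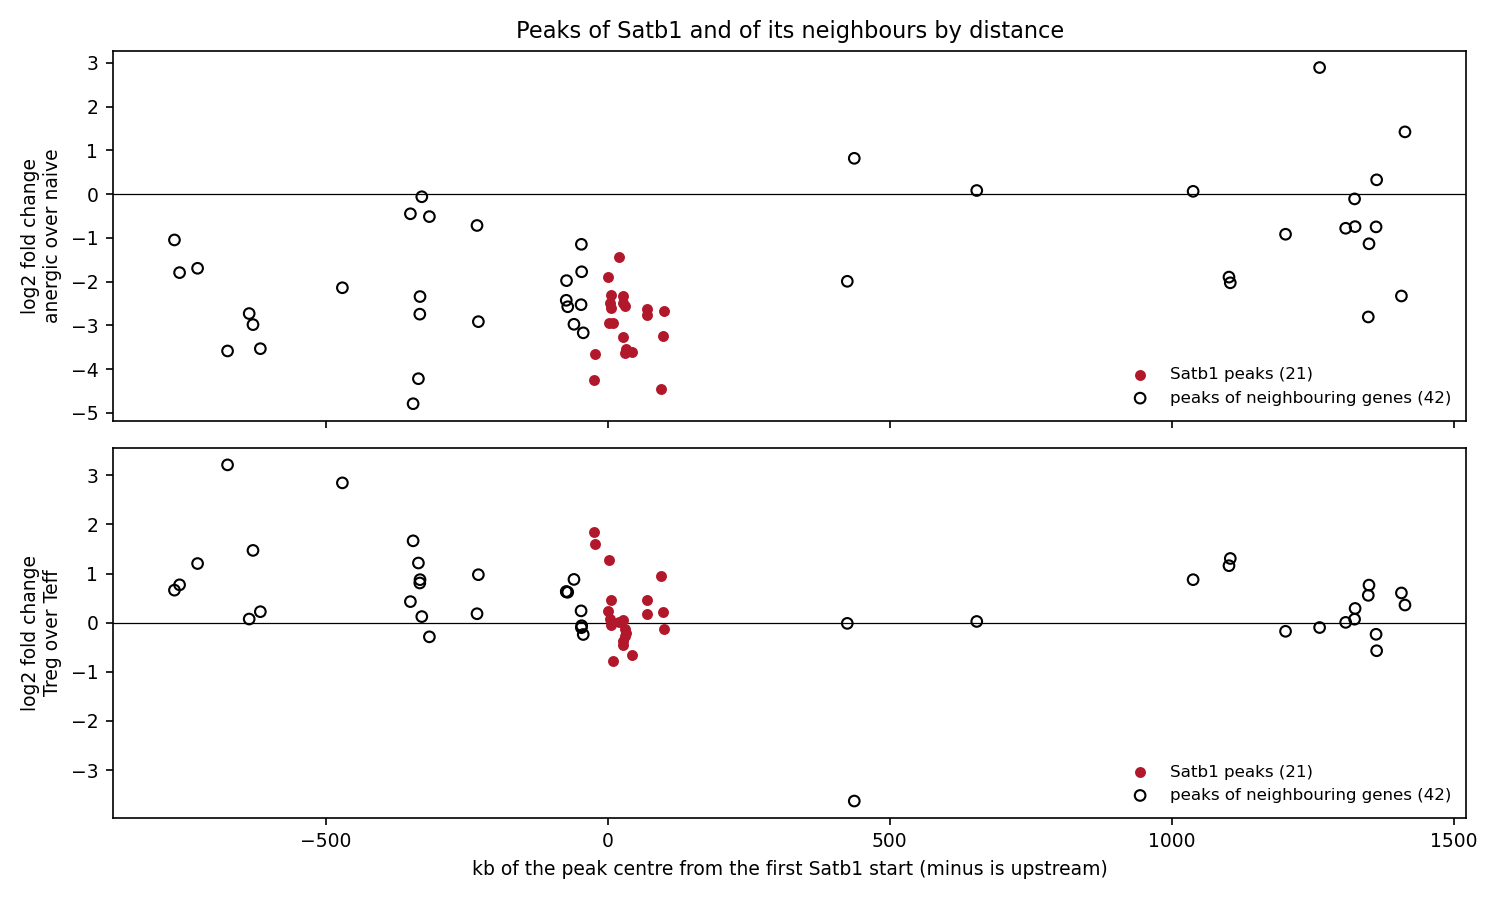
Log2 fold change (y axis) of anergic over naive cells in the upper panel and of Treg over Teff cells in the lower panel, against the distance of the peak centre from the first Satb1 start in kb (x axis, minus is upstream), for the 21 Satb1 peaks (filled) and the 42 peaks of the 8 neighbouring genes (open). In the upper panel all 25 upstream neighbours lie below 0, between -4.79 and -0.06, and the downstream ones lie on both sides of it.

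In the comparisons below, few genes with at least 10 peaks had as high a share of lower peaks as Satb1. Among 489 genes with at least 10 peaks, 5 (Satb1 included) had a share of peaks lower in anergic than in Teff cells that was as high as that of Satb1: Chsy1 (11 of 11), Zbtb16 (13 of 13), Vps37b (11 of 12), Sh3pxd2a (10 of 11) and Satb1 (19 of 21). Zbtb16 encodes PLZF, a factor of innate-like T cells. All peaks were lower in anergic than in naive cells for Satb1 and 4 others, among them Smad7, an inhibitor of TGF-beta signalling (13 of 13). For Treg against naive cells 14 genes reached the share of Satb1 and for Teff against naive cells 7, and Lef1, a TCF family factor of naive T cells, was among them in both (35 and 40 of 49 peaks lower). Smad7 was among the 7 for Teff cells (10 of 13). These ranks describe the choice of Satb1 where anergic cells are concerned.

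Summed signal of some genes correlated with that of Satb1 over the 11 libraries, though not always by changes of a like size. Among 2027 genes with at least 5 peaks, Pearson's r with Satb1, on log2 of the signal summed over a gene's peaks, was highest for the neighbouring gene Gm20098 (0.98), Setbp1 (0.98), Retreg1 (0.98), Rras2 (0.98) and Coq2 (0.97). None of these 5 was among the first 5 with Spearman's rho. Gm20098, Setbp1, Rras2 and Coq2 have 8, 6, 9 and 8 peaks and so could not enter a ranking of genes with at least 10 peaks, where after Retreg1 Smad7 (0.968), Vps37b (0.961), Rbm38 (0.958) and Bcl2l11 (0.957), which encodes BIM, came next. The 11 libraries fall into 4 groups, so r mostly ranks genes by their group means, and it does not measure the size of a change. Satb1 averaged 2898.5 in anergic and 12261.4 in naive cells, and Gm20098 645 and 3260. The relative difference was smaller for Retreg1 (4026 and 5699), Setbp1 (5898 and 11926) and Coq2 (1283 and 2576). Summed signal of Rras2, which encodes a RAS-related GTPase, averaged 1935 ± 255 in anergic, 4667 ± 329 in Treg, 4867 ± 188 in Teff (SD, n = 3 each) and 7310 ± 806 in naive cells (SD, n = 2).

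Genes that SATB1 is known to bind or regulate in T cells had more peaks called higher than lower in anergic, Treg and Teff cells when each was set against naive cells. The list holds Foxp3 and Il2ra, which mark the Treg gate. Of 16 such genes 13 had peaks, 127 in all. In anergic cells 79 of these peaks were higher and 21 lower than in naive cells (25.3% and 25.1% over all peaks), with a median log2 fold change of 1.31 against -0.04 over all peaks. In Treg cells 83 were higher and 13 lower than in naive cells (22.3% and 23.0% over all peaks), with a median of 1.19 against -0.04. In Teff cells 69 were higher and 10 lower than in naive cells (22.7% and 17.4% over all peaks), with a median of 0.90 against -0.03. These 3 comparisons share the naive libraries. In anergic cells 45 were higher and 30 lower than in Teff cells (15.9% and 16.8% over all peaks), with a median of 0.12 against -0.001. Ikzf2, which encodes HELIOS, was higher in anergic than in naive cells at 17 of 17 peaks. Its peak at 69543940 to 69544760 on chromosome 1 averaged 1494 ± 54.8 in anergic cells, 1037 ± 37.0 in Treg cells, 342 ± 19.5 in Teff cells (SD, n = 3 each) and 27.4 ± 3.74 in naive cells (SD, n = 2). Ctla4, an inhibitory receptor gene, was higher in anergic than in naive cells at 18 of 21 peaks and Icos, a costimulatory receptor gene, at 17 of 21. Pdcd1, which encodes PD-1, was higher in anergic cells at 6 of 8 peaks against naive and at 5 of 8 against Teff cells. Other genes of the list went the other way against naive cells. In anergic cells Il2ra had 2 peaks higher and 7 lower of 13, and Runx3 5 higher and 9 lower of 21. Zbtb7b had 1 higher and 2 lower of 7, and Cd8b1 and Il5 had 1 lower each and none higher. Whether SATB1 takes part in any of these differences was not tested. Il13, a T helper 2 cytokine gene, was lower in anergic than in Teff cells at 5 of 7 peaks. Against naive cells it was higher in anergic cells at 7 of 7, and against Treg cells at 5 of 7. Its leading peak against Teff cells had 149 ± 25.1 in anergic and 1065 ± 163 in Teff cells (SD, n = 3 each). The log2 fold change there was -2.83 ± 0.24 (SE, limma adjusted p = 1.56e-08). Runx3, a factor of the CD8 and T helper 1 lineages, was lower in Treg than in naive cells at 7 of 21 peaks and higher at 4, the lowest adjusted p being at a peak with 88.3 ± 13.5 in Treg and 458 ± 61.8 in naive cells (SD; log2 fold change -2.37 ± 0.25, limma adjusted p = 1.07e-07).

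Genes of SATB1's partner proteins, among them histone deacetylase and chromatin remodelling subunits, had peaks in 11 of 11 cases, 31 in all. In anergic cells 4 were higher and 2 lower than in Teff cells, where 15.9% and 16.8% of all peaks were, and 9 were higher and 3 lower than in naive cells (25.3% and 25.1% over all peaks). In Treg cells 7 were higher and 5 lower than in naive cells, close to the 22.3% and 23.0% over all peaks. Kat2b, which encodes the acetyltransferase PCAF and lies on the same chromosome as Satb1, had a peak with 158 ± 9.33 in anergic, 135 ± 30.2 in Treg, 22.3 ± 4.57 in Teff (SD, n = 3 each) and 21.9 ± 6.91 in naive cells (SD, n = 2). Baz1a, a subunit of the ACF remodeller, had the leading lower peak in anergic cells, at 155 ± 20.0 against 268 ± 22.4 in Teff cells (SD, n = 3 each; -0.79 ± 0.21, limma adjusted p = 0.00458), while 2 of its 6 peaks were higher in anergic cells. Smarca4, the BRG1 ATPase gene, had a promoter peak at 4085 ± 325 in Treg and 5838 ± 120 in naive cells (SD; -0.52 ± 0.10, limma adjusted p = 0.00016).

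Pooled over the list, genes of other genome organisers and of T cell identity factors had more peaks called lower than higher in anergic cells. That direction was not shared by all genes of the list. Of 14 genes 13 had peaks, 236 in all. In anergic cells 30 were higher and 58 lower than in Teff cells (15.9% and 16.8% over all peaks), 18 higher and 95 lower than in Treg cells (19.4% and 14.8%), and 37 higher and 115 lower than in naive cells (25.3% and 25.1%). In Treg cells 37 were higher and 71 lower than in naive cells (22.3% and 23.0% over all peaks), and in Teff cells 24 higher and 96 lower (22.7% and 17.4%). The organisers have few peaks: Ctcf and Smc1a 1 each, Rad21 and Stag2 2 each, Stag1 and Wapl 3 each, Nipbl 4 and Smc3 5. Against naive cells, Ctcf, Smc3 and Wapl each had 1 peak lower in anergic cells, and Nipbl and Stag1 each had 1 higher. Against Treg cells Smc3 had 1 lower, Smc1a, Nipbl, Stag2 and Wapl 1 higher each and Stag1 2 higher. Against Teff cells Smc3 had 1 lower, and Smc1a, Stag1 and Wapl 1 higher each. Lef1 was lower in anergic than in naive cells at 44 of 49 peaks, Bach2, a repressor that keeps T cells quiescent, at 35 of 51 and Tcf7, which encodes TCF1, at 14 of 27. Bcl11b was lower there at 10 of 39 and higher at 5, and Ets1 lower at 9 of 49 and higher at 14. The leading Lef1 peak had 139 ± 16.8 in anergic and 757 ± 167 in Teff cells (SD, n = 3 each; -2.42 ± 0.17, limma adjusted p = 9.86e-10). The leading Tcf7 peak had 1823 ± 228 in Treg and 6499 ± 704 in naive cells (SD; -1.84 ± 0.13, limma adjusted p = 3.94e-10). Bach2 differed between the other groups: 43 of its 51 peaks were higher and 1 lower in Treg than in Teff cells, and 11 were higher and 8 lower in Treg than in naive cells. Ets1 had 7 of 49 peaks higher and 4 lower in anergic than in Teff cells, and 2 higher and 15 lower in anergic than in Treg cells. Its leading peak had 2103 ± 221 in anergic, 948 ± 92.5 in Treg, 600.4 ± 57.7 in Teff (SD, n = 3 each) and 97.0 ± 17.9 in naive cells (SD, n = 2).

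Counts over all peaks depend on the scale. With reads scaled by their total in peaks, calls were 5078 higher and 7570 lower in anergic than in Treg cells, against 7462 and 5680 with the deposited scale. The same scaling gave 6935 higher and 5163 lower in Treg than in Teff cells, against 5535 and 6998, and 10709 higher and 5721 lower in Treg than in naive cells, against 8568 and 8867. It moved the median log2 fold change of all peaks by 0.17 for Treg over naive, by 0.10 for Treg over Teff and by -0.13 for anergic over Treg cells. No Satb1 comparison changed its direction under it.

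Markers of other cells that a sort could hold were read beside the Satb1 peaks. Of 6 myeloid genes 3 had a peak, with a summed signal of 2942 to 3097 in anergic, 1429 to 1637 in Treg, 1354 to 1650 in Teff and 1146 to 1324 in naive libraries. Within it Cebpa stood at 2264 to 2459 in anergic libraries and 124 to 139 in naive libraries. The other two went the opposite way, Itgam with 16.1 to 31.1 in anergic and 141 to 212 in naive libraries and Spi1 with 569 to 662 in anergic and 866 to 987 in naive libraries. Lyz2, Csf1r and Cd14 had no peak. Among B cell genes 2 had a peak, Cd79b and Ebf1, and Cd79a, Ms4a1 and Pax5 had none. The sum was 368 to 466 in anergic, 537 to 562 in Treg, 377 to 515 in Teff and 638 to 670 in naive libraries. Cd79b had 289 to 353 in anergic, 391 to 407 in Treg, 313 to 413 in Teff and 545 to 607 in naive libraries. Ebf1 had 73.3 to 113, 145 to 171, 64.4 to 102 and 63.4 to 92.9 in that order, highest in Treg libraries. Of 7 genes of CD8, NK and innate-like T cells 4 had a peak, with 20943 to 26433 in anergic, 19488 to 24928 in Treg, 25197 to 28967 in Teff and 23920 to 24412 in naive libraries. Klrb1c held most of this sum, with 19290 to 24865 in anergic, 17608 to 22978 in Treg, 19306 to 21161 in Teff and 21468 to 21982 in naive libraries. Zbtb16 stood at 859 to 1162 in anergic libraries and at 5074 to 7164 in Teff libraries. Cd8b1 had 115 to 285 in anergic, 613 to 750.0 in Treg, 179 to 227 in Teff and 1117 to 1150 in naive libraries, and Eomes had 429 to 594 in anergic, 681 to 790 in Treg, 462 to 590.0 in Teff and 817 to 908 in naive libraries. Of 4 erythroid genes 2 had a peak. The sum was 2009 to 2478 in anergic, 1767 to 2061 in Treg, 2249 to 2385 in Teff and 2786 to 2851 in naive libraries. Klf1 held most of it, with 1754 to 2286 in anergic and 2688 to 2789 in naive libraries. Alas2 went the opposite way, with 192 to 255 in anergic and 61.7 to 98.3 in naive libraries. It had 170 to 217 in Treg and 52.6 to 70.2 in Teff libraries. The part of these cells in the Satb1 values was not tested.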

How the data were processed

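ATAC-seq of 11 libraries was analysed. Trimming used Trimmomatic 0.38.1, per the series' design text, after which reads were aligned to mm10 (Bowtie2 2.3.3.1) and sorted (SAMtools 1.13), peaks were called per sample with duplicates removed and cut sites adjusted (Genrich 0.5), and DiffBind 2.10.0 gave 38509 consensus peaks. The authors deposited 1 signal value per peak and library. Each column divided by its smallest value gave whole numbers within 0.01 for 100.0% of values, so the deposited signal was read as whole reads times a library factor, whose method is not given in the sources used here. The smallest value was taken as 1 read. Peaks without any read may have been entered at that value, which the sources used here do not settle.

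Peaks on chromosomes (38441) were assigned by the RefSeq start nearest to their centre (NM or NR, 45756 transcripts, GRCm38.p6), and starts were raised by 1 because the file counts from 0. limma-trend (limma 3.58.1, R 4.3.3) was fitted to log2 of signal plus 1 over all 11 libraries with group as the term, after the low-value filter of edgeR 4.0.16 (16 peaks removed, 38493 left). Adjusted p-values are Benjamini-Hochberg over all of these, with a threshold of 0.05. Alternatives used edgeR and DESeq2 1.42.0 on the recovered reads, other scalings, pseudocounts, filters and left-out libraries.

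Satb1 and all gene lists were chosen with earlier results of these data known. Per-library values are given for Satb1 peaks with a centre within 1000 bases of a start, the 3 strongest, the 3 with the greatest and the 3 with the least anergic over Teff change, the 3 lowest adjusted p-values of each tested comparison and those against the majority direction of a comparison. List genes named are those with the lowest adjusted p in each direction, and Ctla4, Icos, Pdcd1 and Bach2 were added after their values were seen.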

Additional observations from a re-analysis of the deposited data

How the results depend on the processing

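The choice of the gene fixed the direction of the counts and ratios that involve anergic cells, so their range under the alternatives is no sign of stability. With the pseudocount at 0.5 or 5, no filter, scaling by total reads, edgeR, DESeq2, only the 2 groups compared or the nearest start taken from the peak's edge, anergic cells were lower at 16 to 21 peaks against Teff, 15 to 19 against Treg and 21 against naive cells. Treg cells were higher than Teff cells at 3 to 4 peaks and lower than naive cells at 11 to 18, and Teff cells were lower than naive cells at 15 to 19. Whether the replicate numbers pair the samples is not settled. Same-numbered libraries of different groups deviated together at r over 0.1 in 4 of 15 pairs (r = -0.11 to 0.16). Deviations were taken from the means of groups of 2 or 3 libraries, which constrains these correlations, so they cannot exclude a shared origin. With the number as a replicate block, Teff cells were lower than naive cells at 15 peaks, Treg cells were lower than naive cells at 13 and higher than Teff cells at 3, and no other count moved. Leaving out 1 library gave 13 to 19, 16 to 20 and 21 to 21 peaks lower in anergic than in Teff, Treg and naive cells, 1 to 4 higher in Treg than in Teff cells, 10 to 15 lower in Treg than in naive and 9 to 17 lower in Teff than in naive cells. The count of 1 came without Teff replicate 1 or Treg replicate 2, and that of 9 without naive replicate 1. Log2 ratios of the summed signal moved with the scaling but not by direction. Scaled by total reads they were -1.50 for anergic over Treg, 0.25 for Treg over Teff, -0.55 for Treg over naive and -0.80 for Teff over naive. TMM factors gave 0.21 for Treg over Teff and -0.65 for Treg over naive, and DESeq2's factors gave -0.68 for the second of these. Pseudocount, filter, block and the samples fitted do not enter this ratio. Giving peaks to the nearest protein-coding start only, an alternative chosen after seeing the data, made 38 peaks Satb1's. Of these, 31 were lower in anergic than in Teff, 33 than in Treg and 35 than in naive cells. In Treg cells 9 were higher than in Teff cells, and 19 were lower and 1 higher than in naive cells, and in Teff cells 28 were lower than in naive cells. The summed ratios were then -0.71, -0.93 and -1.57 for anergic over Teff, Treg and naive, 0.22 for Treg over Teff and -0.63 for Treg over naive. The cause of these differences is the added peaks and, for the scalings, was not tested. Of the alternative values for named peaks and likeness ranks, 1760 were counted as unchanged, 26 as weaker, 23 as stronger and 17 as moved beyond the spread. For tested comparisons, unchanged meant the same side of the threshold. For anergic comparisons it meant a log2 fold change within the spread, whatever the threshold. The count includes fits without a library of a group not compared, which leave the log2 fold change as it was, so it overstates stability. Weak peaks limit the anergic values: the lowest Satb1 peak in an anergic library held 1 read.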
